A study of Homo sapiens with 12 samples.

Results

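The genes that encode the replication-dependent histones were followed in MM1S cells, a human multiple myeloma cell line, during a time course of NGI-1. NGI-1 inhibits the oligosaccharyltransferase complex, which transfers N-glycans to new proteins in the endoplasmic reticulum. The members were taken by symbol from a table of 59276 features. A feature was a member if its name was H1-1, H1-2, H1-3, H1-4 or H1-5, or began with H2AC, H2BC, H3C or H4C and a number, and was not that of a pseudogene. This rule gave 64 genes, of which 5 encode the linker histone H1, 16 encode H2A, 17 encode H2B, 12 encode H3 and 14 encode H4, and it left out 12 pseudogenes. In the GENCODE 29 annotation (GRCh38), 54 of the 64 genes lie on chromosome 6 and 10 on chromosome 1.

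Total RNA of 12 libraries was sequenced, 3 from untreated cells (day 0) and 3 each from cells that had been in NGI-1 for 2, 3 and 5 days. The labels list NGI-1 as the treatment of the day 0 libraries as well. They are called untreated here because their time point is 0 days. All 12 libraries came from the same cell line, and the time in culture and the time in NGI-1 cannot be told apart. Nothing in the labels says that the 3 libraries of a group came from separate cultures, so p-values measure the spread between these libraries, which may be technical.

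Replication-dependent histone genes are small and mostly intronless, lie in clusters, and are known for a burst of mRNA in S phase that supplies histones to newly made DNA. Their mRNAs typically end in a stem-loop instead of a poly(A) tail. The stem-loop is bound by SLBP, and the end is cut by a complex that holds the U7 RNA with LSM10 and LSM11. Some of these genes are also known to give polyadenylated mRNAs that run past the stem-loop, in cells that have left the cell cycle. Histone variants such as H2AX, H2AZ1 or H3-3A come from other genes, most of them with introns and a poly(A) tail.

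The stem-loop is shown because it is the feature that sets these mRNAs apart. It was found in a GENCODE 29 transcript model of 27 of the 64 members. The 4 below were read from models of H2AC6, H2BC5, H4C8 and H4C14, written 5′ to 3′ in DNA letters with both arms of the stem in capitals and the loop in lower case.

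H2AC6: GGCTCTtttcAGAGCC

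H2BC5: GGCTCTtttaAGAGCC

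H4C8: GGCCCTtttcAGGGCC

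H4C14: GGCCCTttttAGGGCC

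The stem of H2AC6 had the same letters as that of H2BC5, and the stem of H4C8 the same as that of H4C14. Where several models of a gene held the stem-loop, the one with the most bases past it was read. This model went on for 1128 bases past it in H2AC6, 1655 in H4C8, 1167 in H4C14 and 39 in H2BC5. The annotation classes the models read for H2AC6, H4C8 and H4C14 as nonsense-mediated decay, and that of H2BC5 as protein coding. In the other 37 members no model held these letters. The model of H1-2, for example, was only 642 bases long, so the models of those members say nothing of their mRNA ends.

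Values are TPM, transcript numbers scaled to the same total in each library, which are corrected for transcript length and can be set side by side between genes. Most members were low in untreated cells. Of the 64 genes, 18 reached 1 TPM in all 3 untreated libraries, and 4 of these, H1-2, H2AC19, H2BC12 and H4C14, reached 10 TPM in all 3. A mean under 0.1 TPM over the 12 libraries was found for 13 members, 5 of which (H1-1, H2AC1, H2BC1, H4C6 and H4C7) were listed at 0 in every library. A feature was tested if it had at least 1 TPM in at least 3 libraries, and 27 members met this. The other 37 never exceeded 1.93 TPM in any library. H2AC7, H2BC18, H3C10 and H4C11 reached 1 TPM in no untreated library, so they were tested only through treated cells, where they had to be higher. H2AC8, H2AC13, H2AC18 and H2BC17 reached 1 TPM in only 1 untreated library and H2BC15 in 2, so they too needed treated libraries to be tested. H3C8 was tested only through untreated cells. Counts over the 27 tested genes are therefore descriptions and do not stand for all 64.

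The summed TPM of all 64 members was several times higher after NGI-1 on every day. The 3 untreated libraries had 272, 218 and 258 TPM. Those of day 2 had 963, 1014 and 1017, those of day 3 had 1154, 1156 and 1162, and those of day 5 had 1107, 1279 and 1308. The highest untreated library was below the lowest treated one. The means were 249 ± 28.2 (SD, n = 3), 998 ± 30.5, 1157 ± 4.19 and 1231 ± 109, which were 4.0-, 4.64- and 4.94-fold the untreated mean at days 2, 3 and 5. As a share of all TPM, the members took 0.0249% in untreated cells and 0.123% at day 5. H2BC12, H1-2 and H2AC19 together made up 64.1% of the members' sum in untreated cells and 54.8% at day 5. With H2BC12, the most abundant member, left out, the mean sums were 171 for untreated cells, then 709.5, 854 and 935 for days 2, 3 and 5. No test was applied to these sums.

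The rest of the transcriptome moved the other way, and the scale of the values matters for this reason. Over the 11939 tested features the median log2 fold change against untreated was -0.18 at day 2, -0.73 at day 3 and -0.99 at day 5. When each library was rescaled to put this median near 0, the members' sum was 4.71-, 8.49- and 11.6-fold the untreated mean on days 2, 3 and 5. The increase in the sum was seen on both scales. Rescaling divided the untreated libraries by more than the treated ones, so it could only enlarge the increase and is no separate check. In bulk values, more RNA of these genes in each cell, less RNA of other genes and a change in the number of cells that express them cannot be told apart.

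**Figure D1:**
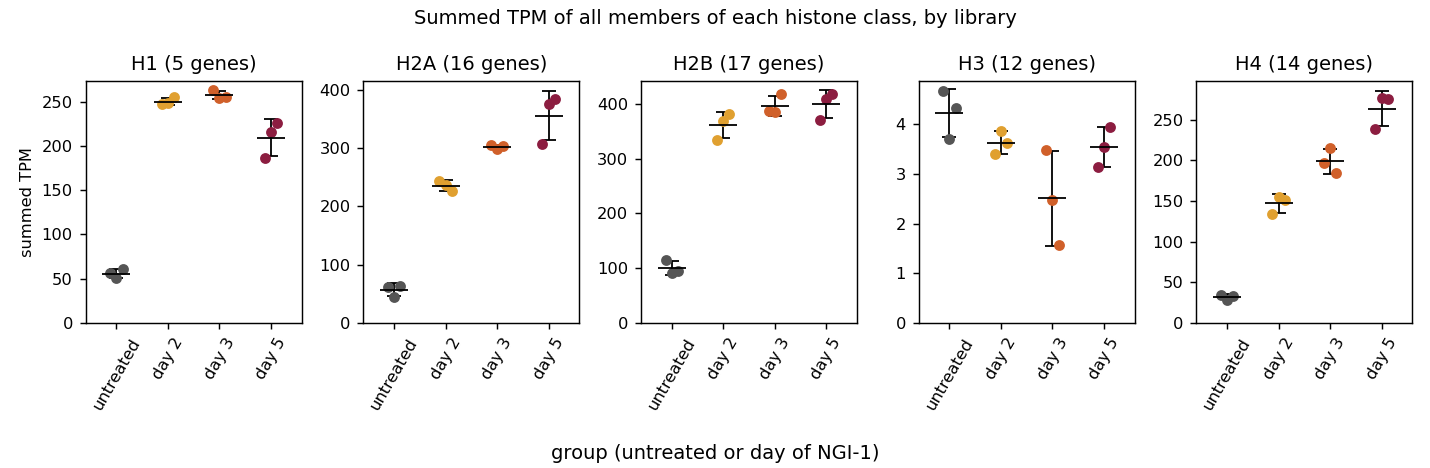
Summed TPM (y axis, linear from 0, own scale in each panel) of all members of the H1, H2A, H2B, H3 and H4 classes in untreated cells and after 2, 3 and 5 days of NGI-1. Points are libraries, and lines with bars are the mean ± SD of 3 libraries. In H1, H2A, H2B and H4 every treated library lies above every untreated one, whereas the H3 sum stays between 1.57 and 4.66 TPM.

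The classes were also summed one by one. The H4 sum was 32.3 ± 3.31 TPM (SD, n = 3) in untreated cells and 147 ± 11.4, 199 ± 15.8 and 263 ± 21.2 at days 2, 3 and 5. The H2A sum went from 56.9 ± 10.8 to 236 ± 8.85, 302 ± 3.10 and 355 ± 41.8 TPM, and the H2B sum from 99.9 ± 12.6 to 362 ± 24.0, 396 ± 18.4 and 399.7 ± 25.2 TPM. H1 was 55.9 ± 5.5 TPM in untreated cells, 250.3 ± 4.07 at day 2, 258 ± 4.50 at day 3 and 209 ± 20.7 at day 5. The 12 H3 genes together had only 4.23 ± 0.483 TPM in untreated cells and 3.63 ± 0.236, 2.51 ± 0.958 and 3.54 ± 0.401 TPM after NGI-1. On the rescaled values the H3 mean was 2.82 in untreated cells and 5.51 at day 5, 1.95-fold the untreated mean, whereas on the deposited scale it was 0.837-fold. The 4 core histones are used in equal numbers in the nucleosome, and in these libraries the summed H3 mRNA was the lowest of the 4 in every group. The H3 sum depends on how shared reads were assigned, since H3C4, H3C13 and H3C14 have little or no sequence of their own in GENCODE 29.

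In limma's moderated test with Benjamini-Hochberg adjustment over all 11939 features, calls needed both an adjusted p below 0.05 and a log2 difference of more than 0.5 in either direction. Fold changes are on the log2(TPM + 1) scale, which understates those of low genes. At day 2, 17 of the 27 tested members were called higher, against 8.04% of all features tested, and 1 was called lower, against 23.2%. At day 3, 16 were called higher, against 7.59% of all features, and 2 lower, against 61.5%. At day 5, 21 were called higher, against 7.73%, and 3 lower, against 69.8%. Among the 18 members with at least 1 TPM in all 3 untreated libraries, 12 were called higher at day 2, 12 at day 3 and 14 at day 5. The median log2 fold change of the 27 tested members was 1.05, 1.03 and 1.44 on days 2, 3 and 5, beside the medians of all features given above.

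The same 14 members were called higher on all 3 days. They were H1-2, H2AC6, H2AC13, H2AC19, H2BC4, H2BC5, H2BC8, H2BC12, H2BC21, H3C10, H4C8, H4C11, H4C14 and H4C15. Of these, H2AC13, H3C10 and H4C11 passed the filter only with the help of treated libraries. H3C8 was called lower on all 3 days. H2AC17 and H2BC17 were called on no day.

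**Figure D2:**
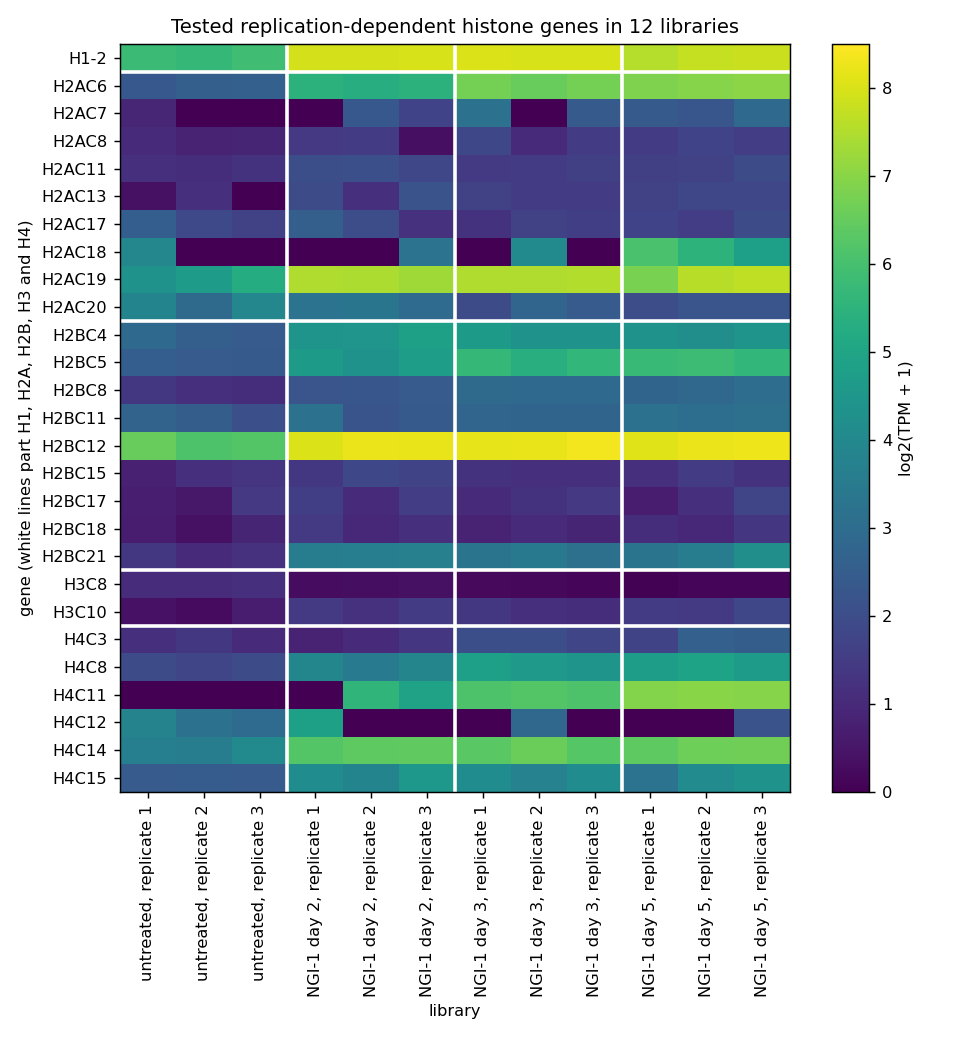
Level of the 27 tested members (rows, by class) in each of the 12 libraries (columns, by group) as log2(TPM + 1), with the colour scale from 0 (dark) to 8.5 (yellow). H1-2 and H2BC12 are the brightest rows in all 4 groups, H2AC6 turns from dark to bright over the days, and H2AC18, H4C11 and H4C12 switch between 0 and higher values from library to library.

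Of the linker histone genes only H1-2 was tested. H1-2 encodes the H1.2 protein, which binds DNA where it enters and leaves the nucleosome. Its TPM was 55.0, 49.8 and 58.4 in untreated cells, 244, 248 and 253 after 2 days, 262, 254 and 255 after 3 days and 186, 215 and 226 after 5 days. All treated libraries lay above all untreated ones, and those of day 5 lay below those of days 2 and 3. Against untreated, the log2 fold change was 2.17 ± 0.08 (SE) at day 2, 2.22 ± 0.08 at day 3 and 1.92 ± 0.08 at day 5 (limma, adjusted p = 9.47e-10, 5.62e-11 and 1.47e-10). On the rescaled values it was 2.40, 3.08 and 3.13, so the lower mean at day 5 was seen only on the deposited scale. H1-3, H1-4 and H1-5 were not tested, and the mean TPM of H1-4 was 0.869 in untreated cells and 0.150 at day 5.

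Among the H2A genes, H2AC6 had the largest log2 fold change of the members with a measurable level in every untreated library. H2AC6 encodes a canonical H2A and spans chr6:26124145-26139116 on the plus strand in GENCODE 29 (GRCh38). Its TPM was 4.11, 4.99 and 5.09 in untreated cells, 43.4, 38.6 and 43.3 after 2 days, 106, 90.5 and 106 after 3 days and 116, 123 and 130 after 5 days. No library of 1 group overlapped with those of an earlier group. It had log2 fold changes of 2.90 ± 0.10 (SE) at day 2, 4.15 ± 0.10 at day 3 and 4.44 ± 0.10 at day 5 (limma, adjusted p = 4.03e-10, 1.69e-12 and 3.68e-13). H2AC6 was 1.90% of the members' summed TPM in untreated cells and 9.99% at day 5.

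H2AC19, the most abundant H2A member, had 19.8, 25.0 and 37.8 TPM in untreated cells and between 109 and 207 TPM in the 9 treated libraries. Its log2 fold change was 2.63 ± 0.22 (SE) at day 2 and 2.57 ± 0.22 at day 5 (limma, adjusted p = 8.72e-07 and 1.11e-07). H2AC13 and H2AC11 stayed low. H2AC13 had 0 to 1.2 TPM in untreated cells and 1.21 to 3.50 TPM in treated cells, with log2 fold changes of 1.25, 1.03 and 1.26 that were called on each day. It shares 63.8% of its 31-base words with H2AC14, which was lower in treated cells, and the sum of these 2 genes, formed after the data were seen, was 1.25 to 2.84 TPM in untreated cells and 1.21 to 3.93 TPM in treated cells, so the summed values overlapped. H2AC11 had 1.19 to 1.39 TPM in untreated cells and 1.75 to 3.22 TPM in treated cells, and was called at days 2 and 5 but not at day 3 (0.34 ± 0.13, adjusted p = 0.0277), where its fold change was under the threshold. Without replicate 3 of day 5 its day 5 value was 0.46 and no longer called.

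H2AC7 and H2AC8, which were also called higher, lay near the limit of the test. H2AC7 was at 0 in 4 of the 12 libraries and reached 8.28 TPM in 1 of day 3. Its day 3 call (1.57 ± 0.69, adjusted p = 0.0499) was lost in 9 of the alternatives tried. Of these, 4 left out 1 library (replicate 2 or 3 of the untreated group, replicate 1 or 3 of day 3). Its day 5 value was 2.23 ± 0.69 (adjusted p = 0.00800). H2AC7 was tested only through treated libraries, where it had to be higher, so both values are a description. Of its 31-base words only 1.93% were found in no other gene. H2AC8 had 0.795 to 1.02 TPM in untreated cells and 1.86 to 2.26 TPM at day 5, and its day 5 call (0.68 ± 0.26, adjusted p = 0.0274) was lost without replicate 2 or 3 of the untreated group or replicate 2 of day 5. It too needed treated libraries to be tested, so this value is a description. H2AC17 had 2.11 to 4.77 TPM in untreated cells and 1.91 to 2.85 TPM at day 5, and these groups overlapped. Only 12.9% of its 31-base words were found in no other gene, and 87.1% were shared with H3C12. Summed with H3C12 it had 2.28 to 5.06 TPM in untreated cells and 1.32 to 5.00 TPM in treated cells.

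H2AC20 was the only H2A member called lower. Of its 31-base words 49.4% were found in no other gene, and 40% were shared with H2AC18. Its TPM was 13.2, 6.72 and 14.2 in untreated cells, 8.40, 8.85 and 6.90 after 2 days, 2.85, 5.88 and 4.41 after 3 days and 2.99, 3.78 and 3.78 after 5 days. All libraries of days 3 and 5 lay below all untreated ones, while day 2 overlapped with them. This was a log2 fold change of -1.18 ± 0.25 (SE) at day 3 and -1.40 ± 0.25 at day 5 (limma, adjusted p = 0.000598 and 0.000116). On the rescaled values it was -0.43 and -0.35 and was not called (adjusted p = 0.123 and 0.191).

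The H2B genes held the most abundant member. H2BC12 had 90.6, 69.6 and 73.4 TPM in untreated cells and between 261 and 326 TPM in all treated libraries. Log2 fold changes were 1.88 ± 0.10 (SE), 1.96 ± 0.10 and 1.92 ± 0.10 on days 2, 3 and 5 (limma, adjusted p = 2.25e-08, 1.72e-09 and 9.92e-10), so the level reached at day 2 was held on the deposited scale. On the rescaled values they were 2.11, 2.82 and 3.14, a further rise. Of the 31-base words in its transcript model, only 13.7% were found in no other gene, so its value depends on how shared reads were assigned.

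H2BC5 rose in steps. It had 4.83, 4.38 and 4.34 TPM in untreated cells, 24.0, 19.3 and 26.4 after 2 days, 49.9, 40.4 and 48.2 after 3 days and 52.6, 55.9 and 48.7 after 5 days. The libraries of days 3 and 5 overlapped and lay above those of day 2, which lay above the untreated ones. Its log2 fold change was 2.13 ± 0.12 (SE), 3.09 ± 0.12 and 3.27 ± 0.12 (limma, adjusted p = 3.43e-08, 9.47e-11 and 3.19e-11).

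H2BC4, H2BC8 and H2BC21 rose as well. H2BC4 had 4.48 to 6.45 TPM in untreated cells and 17.3 to 27.5 TPM after NGI-1, and log2 fold changes of 1.91, 1.81 and 1.69. H2BC21 had 1.59, 1.01 and 1.31 TPM in untreated cells, 11, 11.3 and 12 after 2 days, 8.61, 9.90 and 7.71 after 3 days and 8.72, 11.2 and 17.6 after 5 days. Its untreated libraries were all below its treated ones, and the log2 fold change was 2.44 ± 0.19 (SE), 2.08 ± 0.19 and 2.503 ± 0.19 (limma, adjusted p = 5.01e-07, 4.21e-07 and 3.66e-08). H2BC8 had 1.14 to 1.58 TPM in untreated cells, 3.74 to 4.37 at day 2 and 5.73 to 7.20 at days 3 and 5.

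The remaining H2B members stayed low and moved little. H2BC11 had 3.17 to 5.45 TPM in untreated cells and 7.5 to 8.14 TPM at day 5, where its log2 fold change was 0.72 ± 0.22 (SE; limma, adjusted p = 0.00676). H2BC15 was called only at day 2 (0.56 ± 0.16, adjusted p = 0.0130), a call lost without replicate 1 of the untreated group or replicate 2 of day 2. H2BC15 needed treated libraries to be tested, so this value is a description. H2BC18 was called at day 2 (0.53 ± 0.17, adjusted p = 0.0204) and day 5 (0.51 ± 0.17, adjusted p = 0.0122). Both calls were lost without replicate 2 of the untreated group. H2BC18 was tested only through treated libraries, where it had to be higher, so these values are a description. H2BC17 had 0.465 to 1.68 TPM in untreated cells and 0.617 to 2.39 TPM at day 5, and these groups overlapped.

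Only 2 of the 12 H3 genes were tested, both at a low level. H3C8 passed the filter only through untreated libraries and H3C10 only through treated ones, so the filter fixed their directions and their values are given as a description. H3C8 had 1.10, 1.10 and 1.25 TPM in untreated cells and between 0.0376 and 0.311 TPM in the treated libraries. The log2 fold change was -0.78 ± 0.11 (SE) at day 2, -0.93 ± 0.11 at day 3 and -0.99 ± 0.11 at day 5. H3C10 had 0.341, 0.184 and 0.553 TPM in untreated cells and between 1.16 and 2.51 TPM in the treated libraries, with log2 fold changes of 0.96 ± 0.15, 0.78 ± 0.15 and 1.16 ± 0.15. Neither gene overlapped between untreated and treated cells, which is also only a description, since the filter admitted both genes on these same values. More than 99% of the 31-base words of H3C8 (99.6%) and H3C10 (99.3%) were found in no other gene. This share was 0% for H3C4 and H3C14 and 13.6% for H3C13, which were not tested.

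Among the H4 genes, H4C14, H4C8 and H4C15 rose on all 3 days. H4C14 had 11.8, 10.8 and 15.9 TPM in untreated cells and between 74.4 and 98.9 TPM in the treated libraries. Its log2 fold change was 2.57 ± 0.13 (SE), 2.62 ± 0.13 and 2.78 ± 0.13 (limma, adjusted p = 1.57e-08, 1.23e-09 and 3.60e-10). H4C8, whose model shares few words with other genes (98.9% found only in it), had 2.90, 2.42 and 2.96 TPM in untreated cells, 13.9, 10.7 and 13.6 after 2 days, 27.0, 22.8 and 20.04 after 3 days and 25.4, 29.2 and 25.0 after 5 days.

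The untreated, day 2 and later libraries of H4C8 did not overlap, and its log2 fold change was 1.86 ± 0.14 (SE), 2.68 ± 0.14 and 2.87 ± 0.14 (limma, adjusted p = 2.37e-07, 1.09e-09 and 3.02e-10). H4C3 differed in its timing. It had 1.04 to 1.58 TPM in untreated cells, 0.746 to 1.55 at day 2, 2.42 to 3.11 at day 3 and 2.37 to 5.02 at day 5, and was called at day 3 (0.75 ± 0.21, adjusted p = 0.00489) and day 5 (1.08 ± 0.21, adjusted p = 0.000271) but not at day 2 (-0.14 ± 0.21, adjusted p = 0.610).

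**Figure D3:**
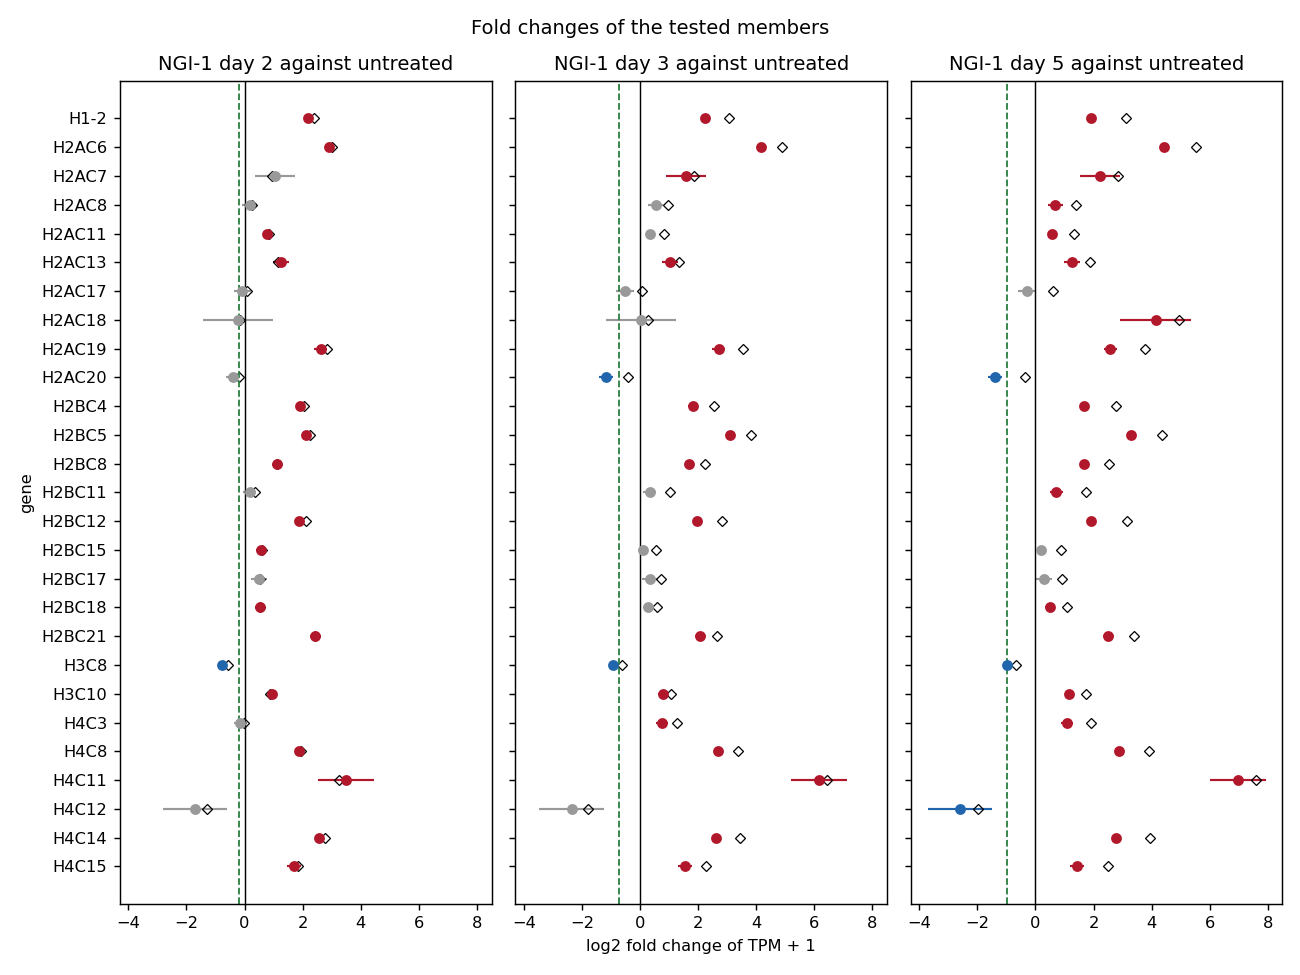
Log2 fold change of TPM + 1 against untreated (x axis) of the 27 tested members (y axis) at days 2, 3 and 5. Filled points with bars are the deposited values ± SE in the fit of all 12 libraries, red if called higher, blue if called lower and grey if not called, open diamonds are the values after rescaling, and the dashed line is the median of all tested features (-0.18, -0.73 and -0.99). Most points lie to the right of 0 on all 3 days, and H3C8, H2AC20 and H4C12 are the blue ones at day 5.

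Near-identical copies could not be told apart one by one. All 31-base words of H4C12 were also found in H4C11, and all of those of H2AC18 in H2AC19, and H4C14 and H4C15 shared 98.6% of the words of the smaller set. H4C11 had a value of 0 in each untreated library as well as in replicate 1 of day 2, and was at 119, 127 and 123 TPM at day 5. H4C12 had 12.8, 8.13 and 6.83 TPM in untreated cells and 27.8 TPM in replicate 1 of day 2, and it was at 0 in 6 of the 9 treated libraries. H4C12 was called lower at day 5 (-2.59 ± 1.11, adjusted p = 0.0425), a call lost in most of the alternatives tried, and H4C11 higher on all 3 days, and the part that the assignment of shared reads had in these calls was not tested. H2AC18 was likewise at 0 in 6 of the 12 libraries and at 66.4, 43.9 and 26.5 TPM at day 5, where it was called higher (4.13 ± 1.21, adjusted p = 0.00571). H2AC18 needed treated libraries to be tested, so this value is a description.

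Summing each such pair removed the switching, an alternative chosen after the data were seen. H4C11 and H4C12 together had 12.8, 8.13 and 6.83 TPM in untreated cells, 27.8, 46.8 and 29.1 after 2 days, 69.2, 80.6 and 69.0 after 3 days and 119, 127 and 127 after 5 days. The sum of H2AC18 and H2AC19 was 34.3, 25.0 and 37.8 TPM in untreated cells and between 165 and 234 TPM in the treated libraries. That of H4C14 and H4C15 was 15.3 to 20.3 TPM in untreated cells and 90.9 to 118 TPM in the treated libraries. In none of these 3 pairs did treated and untreated libraries overlap. The log2 fold change at day 5 was 3.65 ± 0.20 (SE) for H4C11 with H4C12, 2.70 ± 0.14 for H2AC18 with H2AC19 and 2.57 ± 0.12 for H4C14 with H4C15 (limma, adjusted p = 1.27e-09, 6.23e-10 and 3.24e-10). With the copies summed, 16, 15 and 19 features of the histone set were called higher on days 2, 3 and 5, out of 24 tested.

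Many H2A and H2B genes lie head to head and share the stretch of DNA between their start sites. Among the 59 members with an entry in the RefSeq promoter table there were 10 such pairs, with start sites 194 to 248 bases apart. Both genes were tested in 5 of them. H2AC12 had no entry. This gene lies next to H2BC12 on the opposite strand in GENCODE 29, but that pair was not searched. The stretches of H2BC21 with H2AC20 and of H2BC4 with H2AC6 are shown because the genes of the first pair went apart and those of the second rose together. The sequences are RefSeq's (GRCh38.p14), on the plus strand, between but without both start sites, at chr1:149886683-149886917 and chr6:26123927-26124171. Capitals mark matches on either strand to the octamer ATTTGCAT, the TATA box TATAAA and the CCAAT box CCAAT.

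H2BC21/H2AC20: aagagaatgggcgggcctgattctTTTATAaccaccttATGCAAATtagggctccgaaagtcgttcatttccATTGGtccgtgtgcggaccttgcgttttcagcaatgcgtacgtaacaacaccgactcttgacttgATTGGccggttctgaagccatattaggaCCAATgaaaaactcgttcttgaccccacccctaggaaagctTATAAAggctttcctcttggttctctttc

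H2BC4/H2AC6: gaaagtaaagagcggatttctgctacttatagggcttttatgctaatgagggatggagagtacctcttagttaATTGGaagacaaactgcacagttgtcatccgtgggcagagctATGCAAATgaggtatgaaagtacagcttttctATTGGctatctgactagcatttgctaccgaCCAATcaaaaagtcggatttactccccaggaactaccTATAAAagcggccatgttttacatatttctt

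Both stretches held 1 octamer and 3 CCAAT boxes, and the first held 2 TATA boxes while the second held 1. The start sites were 236 bases apart in the first pair and 246 in the second. H2BC21 was called higher on all 3 days, as given above, while H2AC20 on the other side was called lower at days 3 and 5 on the deposited scale and not called on the rescaled values. At day 5 the values on the log2 scale were 2.503 for H2BC21 and -1.40 for H2AC20. H2BC4 and H2AC6 were both called higher on all 3 days, with day 5 values of 1.69 and 4.44. The difference between the genes of a pair was not tested.

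In the other 3 pairs with both genes tested, H2BC8 was called on all 3 days and H2AC8 only at day 5, and H2AC11 was called at days 2 and 5 and H2BC11 only at day 5. Neither H2AC17 nor H2BC17 was called. Of the other 5 pairs, 3 had 1 tested gene (H2AC7, H2AC13 and H2BC15) and 2 had none.

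**Figure D4:**
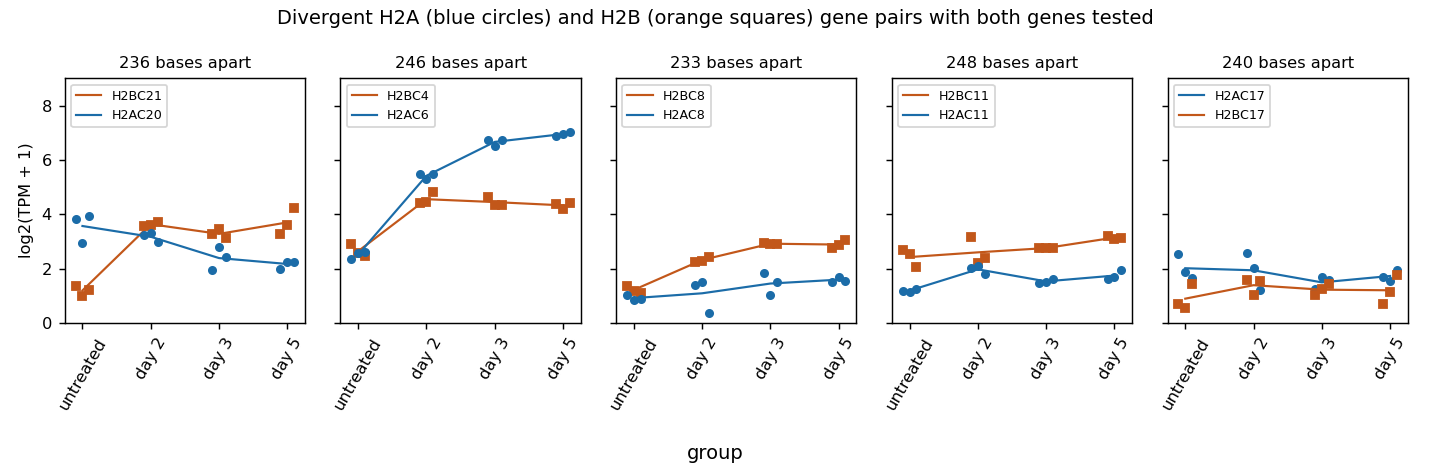
Level of both genes in the 5 divergent pairs of H2A and H2B members that were both tested, as log2(TPM + 1) (y axis), in untreated cells and at days 2, 3 and 5 (x axis). Points are libraries and lines join the group means, with H2A in blue circles and H2B in orange squares, and the distance between start sites is above each panel. H2BC21 and H2AC20 cross over, and H2AC6 ends well above H2BC4 after starting at a similar level.

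Sequence features of the promoters were counted over the 59 members with an entry in the RefSeq promoter table, from 250 bases before to 50 bases after each start site. The octamer was found in 11 of 15 H2A promoters and 14 of 17 H2B promoters, in none of H1, H3 or H4, and in 1.77% of all 35116 promoters. The windows of genes that lie head to head overlap, so 1 octamer can be counted for both genes of a pair. The CCAAT box was found in all promoters of H1 (5), H2A (15), H2B (17) and H3 (10), in 3 of 12 of H4, and in 34.6% of all promoters. TATAAA was found in 41 of the 59, against 11.5% of all promoters. Of the 25 members with an octamer, 13 were tested, and 10 of these were called higher at day 5 and 1 lower, against 7.73% and 69.8% of all features. Of the 34 members whose promoter held none, 13 were tested, 10 called higher and 2 lower. Of the 27 members with a stem-loop in a model, 18 were tested, 16 called higher at day 5 and 1 lower. Of the 37 members without one, 9 were tested, 5 called higher and 2 lower. For each member the model with the most bases past the stem-loop was used. Of the 19 where it ran at least 100 bases past, 12 were tested, 10 called higher and 1 lower. Of the 8 where it was shorter, 6 were tested and 6 called higher. These are matches of letters and annotation, and no factor or mRNA end was measured.

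The steps between the treated days were tested as well. Between day 2 and day 3, 6 members were called higher (3.22% of all features) and 1 lower (55.5% of all features). Those higher were H2AC6 (1.25 ± 0.10, SE), H2BC5 (0.97 ± 0.12), H2BC8 (0.60 ± 0.12), H4C3 (0.90 ± 0.21), H4C8 (0.82 ± 0.14) and H4C11 (2.67 ± 0.96), with adjusted p-values in limma from 8.26e-07 to 0.0228. H2AC20 was the one called lower (-0.78 ± 0.25, adjusted p = 0.0112). Between day 3 and day 5, 1 member was called higher (0.670% of all features) and none lower (13.1% of all features), and the 1 was H2AC18 (4.10 ± 1.21, adjusted p = 0.0231), which could not be told apart from H2AC19. H1-2, H2BC4, H2BC12 and H4C14 were called in neither step. Rescaling raised the counts to 12 higher in the first step and 9 in the second.

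Members under the limit of the test included some whose few reads were in untreated cells. H2AC14, which shares 84.6% of its words with H2AC13, had 0.946, 1.63 and 1.82 TPM in untreated cells and at most 0.433 TPM in any treated library. The values of H2BC10 were 0.396, 1.23 and 1.40 TPM in untreated cells and at most 0.238 TPM in treated cells. H4C1 was at 0.247 to 1.32 TPM in untreated cells and at 0 in all treated libraries. These 3 were chosen after their values were seen and were not tested.

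Genes that serve histone supply and DNA replication were lower in the same libraries. In a list of 20 genes for the transcription and 3′ end of histone mRNAs, 11 were called lower at day 2, 17 at day 3 and 18 at day 5, against 23.2%, 61.5% and 69.8% of all features, and 1 was called higher, XRN1, a 5′ exonuclease, at day 2, a call lost without replicate 3 of the untreated group. SLBP, which binds the stem-loop, had 66.2, 66.9 and 63.7 TPM in untreated cells and 10.01, 9.88 and 10.8 TPM at day 5, and its log2 fold change was -1.39 ± 0.09 (SE), -2.26 ± 0.09 and -2.57 ± 0.09 (limma, adjusted p = 7.86e-08, 7.99e-11 and 1.30e-11). The untreated and treated libraries of SLBP did not overlap. On the rescaled values the day 5 value of SLBP was -1.40.

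NPAT, which drives histone transcription in S phase, was called lower at days 3 and 5 (-1.52 and -1.92), and CASP8AP2, a partner of NPAT in the histone locus body, on all 3 days (-0.84, -1.10 and -1.35). LSM11 of the U7 particle was called lower on all 3 days, with -2.02 at day 5, and LSM10 at days 3 and 5, with -0.84 at day 5. HINFP, an activator of H4 genes, had -0.81 at day 5. On the rescaled values LSM10 and HINFP turned to 0.36 and 0.27 at day 5. CDK2, which phosphorylates NPAT, had the lowest day 5 value of the list (-3.44), and LSM1, which acts in histone mRNA decay, the highest (-0.17, rescaled 1.05). The median of the list at day 5 was -1.92, beside -0.99 for all features tested. After rescaling, 8, 11 and 13 genes of the list were called lower and 1, 2 and 2 higher on days 2, 3 and 5.

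Of 23 histone chaperones, 18, 21 and 22 were called lower on days 2, 3 and 5, against the same shares of all features, and none was called higher. After rescaling, 13, 18 and 18 were called lower and 0, 1 and 2 higher. ASF1B and CHAF1A, which deliver new H3 and H4 to replicating DNA, fell by 4.78 and 4.49 on the log2 scale at day 5, and NASP, which holds soluble H3 and H4, by 3.52. ASF1A fell by 1.23, CHAF1B by 2.91 and HJURP, the chaperone of CENPA, by 4.88, the most of the list. HAT1, which acetylates new H4, had -0.58 at day 5 and 0.63 on the rescaled values, and NAP1L1, an H2A and H2B chaperone, had -0.47, the least of the list, and 0.75 on the rescaled values.

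Of 28 DNA replication genes, 26 were called lower at day 2 and 27 at days 3 and 5, against 23.2%, 61.5% and 69.8% of all features. PCNA, the sliding clamp, had 138, 144 and 142 TPM in untreated cells and 9.74, 8.28 and 8.96 TPM at day 5. MCM4, a helicase subunit, had the lowest value (-5.42 at day 5), and RPA3, a single-strand binding subunit, the highest (0.19, adjusted p = 0.214). The counts for this list on the rescaled values were 26, 27 and 27 lower and 0, 1 and 1 higher. The tested members and the replication genes, which are both S phase genes by background, were thus mostly called in opposite directions in these libraries. The other 37 members were not tested, so this does not stand for all members.

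**Figure D5:**
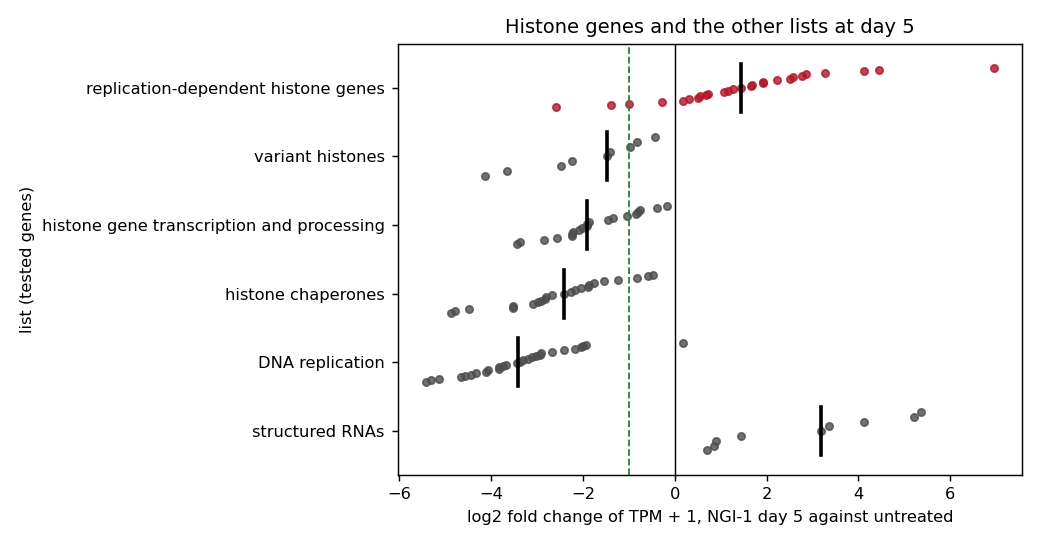
Log2 fold change of TPM + 1 at day 5 against untreated (x axis) of the tested genes of each list (y axis), 1 point per gene, on the deposited scale. Black bars are the list medians, and the dashed line is the median of all features tested (-0.99). The histone genes and the structured RNAs lie mostly above 0, and the other 4 lists below 0 with 1 exception, RPA3.

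Variant histones are made outside S phase as well. Of 11 variant genes 9 were tested, and 5 were called lower at day 2, 9 at day 3 and 8 at day 5, with none called higher, while 69.8% of all features were called lower at day 5. After rescaling, 4, 5 and 4 were called lower and 1, 0 and 1 higher. H2AX, the variant of DNA damage signalling, had 36.7, 40.5 and 54.2 TPM in untreated cells and 1.78, 2.82 and 3.08 TPM at day 5, a log2 fold change of -3.65 ± 0.16 (SE; limma, adjusted p = 1.72e-10). CENPA, the H3 variant of centromeres, fell by 4.14, H2AZ2 by 2.49, MACROH2A1 by 2.23, H3-3B by 1.47 and H2AZ1 by 1.41 on the log2 scale at day 5.

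H2AZ1 at 862 to 888 TPM and H3-3A at 697 to 747 TPM were each above the sum of all 64 members in untreated cells. At day 5 they had 309 to 361 and 340 to 376 TPM, and the sum of the 64 members was above both. By background most variant mRNAs have a poly(A) tail and most mRNAs of the members lack one. Whether the libraries captured both alike was not tested. On the rescaled values the day 5 direction turned for H1-10 (from -0.83 to 0.37), H2AJ (from -0.44 to 0.72) and H3-3A (from -0.98 to 0.25).

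Structured RNAs, which are known to lack a poly(A) tail, were mostly called higher in treated cells. Of 15 structured RNAs, 6 were listed at 0 in every library, and 9 were tested. Of the tested ones, 7, 9 and 7 were called higher on days 2, 3 and 5, against 8.04%, 7.59% and 7.73% of all features. None was called lower, against 23.2%, 61.5% and 69.8% of all features. RN7SK, the RNA that holds P-TEFb inactive, had 9.28, 5.65 and 14.1 TPM in untreated cells, 57.9, 68.7 and 49.7 after 2 days, 134, 242 and 115 after 3 days and 192, 176 and 157 after 5 days. RPPH1, the RNA of RNase P, had a log2 fold change of 3.36 ± 0.45 (SE) at day 5, SNORD3A 3.19 ± 0.38, RN7SL1 1.45 ± 0.39 and RN7SL2 0.70 ± 0.42 (limma, adjusted p = 8.98e-06, 2.39e-06, 0.00321 and 0.134). RNU2-2P, with 0 in each untreated library, had the highest fitted value. It was tested only through treated libraries, where it had to be higher, so the counts of calls in this list are a description. The part that capture of RNAs without a tail had in the histone values was not tested. RNU7-1, the U7 RNA, was among the 6 at 0.

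All 7 plasma cell markers were tested, and their summed TPM was 3008 to 3178 in untreated cells and 2888 to 3205 at day 5. At day 5, 4 were called lower, against 69.8% of all features, and 1 higher, against 7.73%. TNFRSF17 was called higher at day 5 (1.85) and XBP1 lower (-2.09). Of the T cell, myeloid, stromal and erythroid markers, 4 each, all but CD3E and 1 erythroid gene stayed under 1 TPM in every library. CD3E had 2.75 to 3.32 TPM in untreated cells, was called higher at days 2 (0.86) and 3 (0.75) and had 3.40 to 4.74 TPM at day 5, and its part in the histone values was not tested.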

How the data were processed

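The authors sequenced total RNA (paired ends, at a depth that the labels give only as a minimum). The submitters' notes name FastQC, Trimmomatic, STAR and Salmon with hg38, and the annotation is not given in the sources used here. The deposited values are log2(TPM + 1), 1 column per library and 59276 features. TPM was recovered as 2 to the deposited log2 value minus 1 and summed to the same total in each library, so the depth of each library is unknown and no counting interval could be given.

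The 11939 features that reached 1 TPM in 3 or more libraries were fitted with limma 3.58.1 on log2(TPM + 1), with 1 mean per group over all 12 libraries and a mean-variance trend, and p-values were adjusted by the Benjamini-Hochberg method. Calls needed both an adjusted p below 0.05 and a log2 difference of more than 0.5 in either direction. The script was tested on simulated data. For the rescaled values, each library was divided by its median ratio to the mean of all libraries (log2 scale) over 5433 features whose mean was 10 TPM or more. Alternatives were testing without the filter or at 5 TPM, a pseudocount of 0.1, leaving out the 20 most abundant features, fitting 2 groups at a time, dropping the mean-variance trend, a fold threshold of 1, each library left out in turn, and near-identical copies summed, the last chosen after the data were seen. Stem-loops and shared 31-base words were read from GENCODE 29 transcripts and promoters from RefSeq.

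The members and gene lists were chosen with earlier results of these data known. The text names, of each class, the 4 most abundant tested members and those with the lowest and highest fold change on each day, any member called higher, members counted 5 or fewer at a time, the gene with the lowest and the highest day 5 value of each other list, and 23 genes of those lists chosen by name (such as SLBP, NPAT, H2AX and PCNA). XRN1, RN7SK, RPPH1, SNORD3A and RN7SL1, and members outside this rule, were named after their values were seen. Of these lists, 1 gene is not reported here.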

Additional observations from a re-analysis of the deposited data

Results flagged for a closer look

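Changes between treated days were tested in the same limma fit, and 8 of them passed for members, that is, the level differed between 2 treated time points. Time in culture and time in NGI-1 cannot be told apart in these differences. From day 2 to day 3 the log2 difference was 1.25 for H2AC6, 0.97 for H2BC5, 0.60 for H2BC8, 0.90 for H4C3, 0.82 for H4C8 and 2.67 for H4C11, all higher at day 3. It was -0.78 for H2AC20, which was lower at day 3. From day 3 to day 5 the log2 difference was 4.10 for H2AC18. H4C11 and H2AC18 each share all their 31-base words, or all those of their partner, with a near-identical copy. For H4C11 with H4C12 summed, the day 3 difference was 1.09 ± 0.20 (SE; limma, adjusted p = 0.000342), and for H2AC18 with H2AC19 summed the day 5 difference was 0.20 ± 0.14 (adjusted p = 0.298).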

How the results depend on the processing

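The counts of members called higher against untreated stayed within 1.5 times of 17, 16 and 21 on days 2, 3 and 5 in every setting tried, and no member changed direction once called. The few calls lower did depend on the setting. At day 2 (1 call) there were 0 with a fold threshold of 1, 4 without a filter, 0 with a TPM minimum of 5, 2 with the 20 most abundant features left out, and 1 to 2 with a library left out (2 without untreated replicate 2 or day 2 replicate 1). At day 3 (2 calls) there were 1 with a fold threshold of 1, 7 without a filter, 1 with a TPM minimum of 5, 1 after rescaling, and 2 to 3 with a library left out. At day 5 (3 calls) there were 7 without a filter, 1 after rescaling, and 2 to 3 with a library left out. Without a filter limma found most residual variances to be 0, so those counts are unreliable. Between days 2 and 3 the 1 call lower became 0 with a fold threshold of 1 or after rescaling, 2 without a filter, 3 with a pseudocount of 0.1, and 1 to 3 with a library left out (2 without day 2 replicate 1, 3 without day 2 replicate 3), and the 6 calls higher became 2 with a fold threshold of 1 and 12 after rescaling. Between days 3 and 5 the 1 call higher became 0 without a filter, 9 after rescaling, 2 in pairwise fits, and 0 to 2 with a library left out (0 without day 3 replicate 1 or 3 or day 5 replicate 2, 2 without day 5 replicate 1). In the 4 lists of variant histones, transcription and processing, chaperones and DNA replication, the 1 call higher at day 2 became 0 with a fold threshold of 1, 2 after rescaling and 0 to 1 with a library left out (0 without untreated replicate 3), and calls higher at day 3 went from 0 to 4 after rescaling, and at day 5 from 0 to 6 after rescaling and 1 with the 20 most abundant features left out. The members' mean sum in untreated cells and at days 2, 3 and 5 was 166, 783, 1413 and 1922 after rescaling, 319, 1366, 1768 and 1974 with the 20 most abundant features left out, and 171, 709.5, 854 and 935 without H2BC12. Rescaling turned H1-10 at day 5 (0.37), H2AJ at days 3 (0.28) and 5 (0.72), H3-3A at days 3 (0.16) and 5 (0.25), HAT1 at days 3 (0.14) and 5 (0.63), HINFP at days 3 (0.23) and 5 (0.27), LSM1 at day 5 (1.05), LSM10 at days 3 (0.33) and 5 (0.36), NAP1L1 at days 3 (0.63) and 5 (0.75) and RPA3 at day 3 (0.56). Beyond what these settings do by construction, the cause was not tested. No paired analysis was possible because the labels carry no replicate numbers, and the numbers used here were given in accession order.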

Other observations

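H2AW, a histone H2A gene whose symbol lies outside the rule, had 0.865, 3.35 and 2.28 TPM in untreated cells and between 7.26 and 17 TPM in the treated libraries, which did not overlap with the untreated ones. Its log2 fold change was 1.62 ± 0.25 (SE), 2.14 ± 0.25 and 2.27 ± 0.25 on days 2, 3 and 5 (limma, adjusted p = 0.000146, 2.79e-06 and 9.70e-07). H2AW reached 1 TPM in only 2 untreated libraries, so it needed treated ones to be tested and its values are a description. The pseudogene H2BC20P had 6.83, 9.32 and 7.19 TPM in untreated cells and 2.88, 1.67 and 2.60 TPM at day 5, and its log2 fold change was -1.87 at day 3 and -1.38 at day 5 (limma, adjusted p = 2.55e-05 and 0.000292). Both were chosen after their values were seen.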
